A study of Arabidopsis thaliana with 126 samples.

Results

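The ET (ethylene) response of *ein6-1* seedlings was measured in 4 RNA-seq libraries, 2 from seedlings given ET gas for 4 hr and 2 from seedlings kept in hydrocarbon-free air. They were chosen by genotype and treatment alone, and are 4 of the 20 libraries of one expression table and of the 126 samples of the series. All seedlings were *Arabidopsis thaliana*, 3 days old and grown in the dark (etiolated), and whole seedlings were used. The *ein6-1* line carries a short deletion in the fifth exon of *REF6* (At3g48430), which leads to a premature stop codon, in the L*er* (Landsberg *erecta*) accession. It is a single allele of fast-neutron origin, one of 2 mutations found in the original mutant, of which the other is *een-1*. The same ET and air treatments were given, with 2 libraries each, to *een-1*, in which an inversion on chromosome 4 breaks *EEN* (At4g38495), to the double mutant *ein6-1 een-1*, to the *EIN2* mutant *ein2-45*, and to L*er*. The study calls the 2 libraries of a group biological replicates.

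ET is sensed by receptors in the endoplasmic reticulum membrane, which in air keep the kinase CTR1 active and so hold back EIN2. When ET binds, EIN2 passes the signal to the nucleus, the transcription factors EIN3 and EIL1 accumulate, and they switch on target genes, among them *ERF* transcription factors and several of the pathway's own receptors and inhibitors. In etiolated seedlings this gives a short, thick hypocotyl, a short root and an exaggerated apical hook. REF6 (EIN6) is a histone demethylase that removes H3K27me3, a repressive mark laid down by Polycomb proteins, and EEN belongs to INO80, a complex that remodels chromatin. The comparison asks which transcripts respond to the hormone when REF6 alone is mutated.

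Levels are given as rescaled TPM (transcript abundance within a library, corrected for length), the deposited TPM divided by one factor per library so that the typical gene is at the same level in each. *REF6* stood at 11.3 and 5.43 in the *ein6-1* ET libraries and at 10.7 and 9.97 in *ein6-1* air. In the other 16 libraries it lay between 5.82 and 10.9. A short deletion cannot be seen in a gene-level value, so these levels do not check the genotype. *EEN*, intact in this line, had 21.9 and 35.0 after ET and 31.3 and 21.0 in air. The protochlorophyllide reductase gene *PORA*, abundant in dark-grown seedlings, had 659 and 884 after ET and 567 and 737 in air. Seed storage transcripts summed to 68.8 and 112 after ET and to 83.4 and 83.8 in air, below all of the other 16 libraries (206 to 13170), and 5 of 6 flower markers stayed under the limit for testing. The library sizes are not known from TPM, so no counting error can be given. In whole seedlings, fewer cells of a type and less RNA per cell cannot be told apart.

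One library of the comparison stood apart. Ribosomal RNA took 8.98% and 30.3% of the TPM in ET replicates 1 and 2, against 6.27% and 12.2% in air, and 2.80% to 16.1% over the 18 libraries outside the *ein6-1* ET group. These shares count the annotation At2g01021, described below, as ribosomal. It had 15220 and 67340 deposited TPM in ET replicates 1 and 2. The rescaling factor of ET replicate 2 was 0.628, while the other 19 lay between 0.818 and 1.16. Within the *ein6-1* ET group the difference between replicates also followed transcript length. In 15040 genes, replicate 2 exceeded replicate 1 by a median of 0.445 on the log2 scale in the shortest quartile (under 1219 bases) and fell short of it (median -0.36) in the longest (over 2272 bases). The Spearman correlation of that difference with length was -0.759, against -0.115 in *ein6-1* air and -0.127 to 0.44 in the other 8 groups; genes within a library share its RNA quality and depth, so this is a description. The ET response itself carried the trend, with medians of 0.242 in the shortest and -0.135 in the longest quartile, and 0.007 and 0.061 once replicate 2 was left out. Results are therefore given with both replicates, and the main counts also without replicate 2 and with the length trend taken out of each library. List counts are from both replicates unless another setting is named, and some of them change in the other settings. A fit without 1 replicate leaves 1 library in that group, so the spread between its replicates does not enter the fit.

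**Figure D1:**
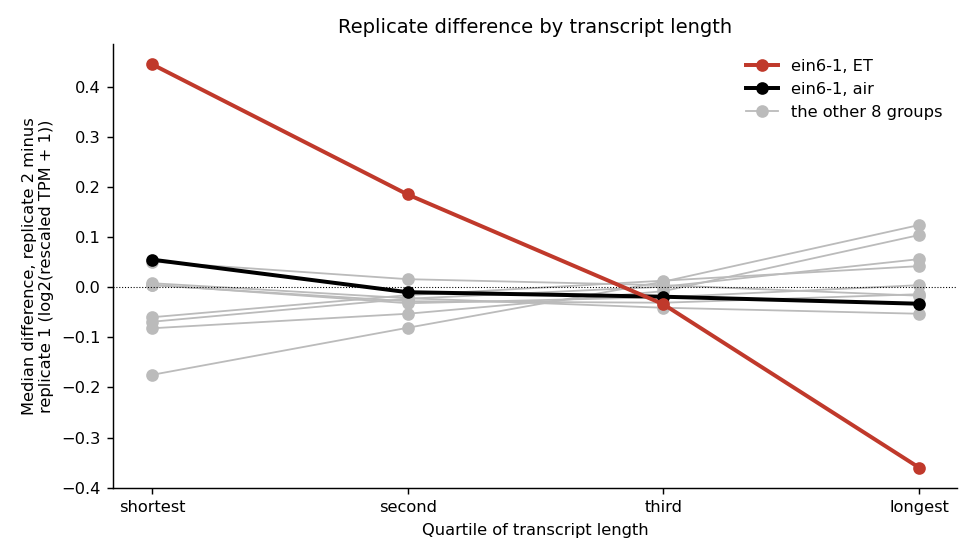
Median difference between the replicates of each group, replicate 2 minus replicate 1 on the log2(rescaled TPM + 1) scale (vertical axis), by quartile of transcript length (horizontal axis), with 1 line a group. The *ein6-1* ET line runs down from 0.445 to -0.36, while the *ein6-1* air line stays between 0.055 and -0.033.

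The ET response of *ein6-1* comprised 1445 genes called higher and 1799 called lower, which is 7.04% and 8.76% of the 20534 genes tested (limma, adjusted p below 0.05 after Benjamini-Hochberg adjustment over all genes). Most changes were small. The median log2 fold change was 0.69 among the higher genes, of which 386 reached at least 1 (a doubling), and the 424 lower genes at least as far down were 23.6% of theirs. Fold changes are on the log2(rescaled TPM + 1) scale, which understates the change of low genes. Both ET libraries lay above, or both below, both air libraries in 47.0% of genes, called or not. Without ET replicate 2, the counts were 759 higher and 1297 lower (3.7% and 6.33% of 20492), of which 636 and 1123 were shared with the calls on all 4 libraries. All of the 1799 lower genes and 1436 of the 1445 higher genes kept their sign. That refit shares its libraries with the fit that chose these genes, which favors a kept sign, so this is a description only. The number called was 5917 without ET replicate 1 and 1970 without air replicate 1. With the length trend taken out, 1599 were higher and 2068 lower (7.79% and 10.1%), and 1182 and 1648 of these were shared. On the deposited TPM, without rescaling, the split turned to 400 higher and 1957 lower (1.94% and 9.5%), and the median over all genes moved to -0.20, against 0.03 after rescaling. The fit took its estimate of the spread from all 20 libraries of the table. Fitted on the 4 *ein6-1* libraries alone, 378 genes were higher and 455 lower. Directions below are relative to the rescaled libraries.

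The pathway that makes ET moved in opposite directions at its last steps. ACC oxidases, which turn ACC into ET, were higher in 4 of 5 members, and ACC synthases, which make ACC, were lower in 7 of 8 tested (medians 1.59 and -0.995, against 0.03 over all genes). *ACO4* (At1g05010, chromosome 1 from 1431177 to 1433010 in TAIR10.1) had 960 and 884 rescaled TPM after ET, against 113 and 87.2 in air. Both ET libraries stood far above both air libraries, with a log2 fold change of 3.20 (SE 0.18, adjusted p = 2.51e-08 from limma), and 3.26 without ET replicate 2. The ACC oxidase gene At1g62380, the most abundant of the list, had 5244 and 4635 after ET and 1766 and 1514 in air (1.59). At2g19590, another ACC oxidase, had 46.1 and 56.6 against 10.6 and 14.9 (1.94), and *ACO5* had 781 and 666 against 409 and 408 (0.82). The 4 genes thus stood clear of their air levels over a wide range of abundance. *ACS8* had 0.614 and 0.605 after ET and 4.65 and 3.77 in air, both ET values far below both air values (log2 fold change -1.69, SE 0.19, adjusted p = 1.84e-05). *ACS2* had 6.18 and 5.59 after ET and 13.0 in each air library (-1.02), and *ACS4* had 0.068 after ET in replicate 1 and was listed at 0 in replicate 2, against 2.28 and 1.80 in air. *ACS5*, the most abundant synthase, was 0.43 lower on the log2 scale with 33.6 and 29.8 against 45.9 and 40.5. *ACS7* had 1.62 and 2.23 against 3.37 and 3.10 and did not pass (adjusted p = 0.07), and *ACS1* was too low to test. Without ET replicate 2, *ACS5* and *ACS9* also did not pass, which left 5 synthases lower.

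In perception, 5 of 9 members were higher and none lower, also without ET replicate 2, while without ET replicate 1 the counts were 6 and 2. They were 3 receptors, the receptor partner *RTE1* and the kinase *CTR1*. *RTE1* (At2g26070), which lies on chromosome 2 between 11105605 and 11107188 and encodes a regulator of receptor function, had 66.1 and 89.2 after ET and 10.2 and 10.1 in air. The groups were widely separated, with a log2 fold change of 2.80 (SE 0.20, adjusted p = 2.61e-07). The receptor genes *ETR2* (40.1 and 30.4 against 13.2 and 12.4, log2 fold change 1.38), *ERS2* (33.9 and 23.7 against 10.3 and 8.75, 1.48) and *ERS1* (187 and 151 against 92.5 and 83.1, 0.93) were higher as well. In each of these receptors ET replicate 1 was the higher of the pair and both stood above both air libraries. *CTR1* had 84.7 and 56.3 after ET and 40.6 and 35.5 in air (0.85). The receptors *ETR1* (log2 fold change 0.24) and *EIN4* (15.2 and 10.3 against 15.4 and 14.6, -0.24) and the copper transporter *RAN1*, which supplies the receptors (85.3 and 56.2 against 99.5 and 88.9, -0.44), did not pass. Without ET replicate 1, *EIN4* and *RAN1* stood at -0.50 and -0.73, in a fit that rests on replicate 2 as the only ET library. With the length trend taken out they were at -0.067 and -0.23 and did not pass (adjusted p = 0.71 and 0.056 from limma). In that setting *ETR1* passed at 0.37 (adjusted p = 0.012 from limma), and 6 of 9 members were higher.

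Of 10 signal transduction genes, 1 was called with all 4 libraries, 3 were higher without ET replicate 2, and 1 was higher and 3 lower without ET replicate 1. *EBF2*, an F-box protein that targets EIN3 for degradation, had 156 and 101 after ET and 75 and 63.8 in air (log2 fold change 0.85, SE 0.17, adjusted p = 0.00282). *EIN2* (At5g03280, chromosome 5 from 787428 to 793404) had 104 and 54.3 after ET and 64.7 and 59.2 in air. ET replicate 1 lay above both air libraries and replicate 2 below them, so the groups overlapped (0.28, adjusted p = 0.364). Without ET replicate 2 the *EIN2* value was 0.74, and with the length trend taken out *EIN2* was called at 0.54 (adjusted p = 0.000252 from limma). The related F-box gene *EBF1* had 100 and 59.9 after ET and 76.7 and 75.5 in air, with the ET libraries on either side. Its log2 fold change was 0.03 (adjusted p = 0.93), 0.40 without ET replicate 2 and -0.34 without ET replicate 1. Each fit without 1 ET replicate leaves 1 ET library, so the spread between ET replicates does not enter it. *EIN3* (96.4 and 79.8 against 99.0 and 84.6) and *EIL1* (67.5 and 54.0 against 73.6 and 63.3) overlapped between ET and air and did not pass.

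Among 15 ET-related transcription factors, 10 were higher and none lower (9 without ET replicate 2), and all 3 *ARGOS* family genes were higher. *ERF11* (At1g28370), an ERF repressor, had 15.5 and 22 after ET and 2.10 and 1.66 in air (log2 fold change 2.76, SE 0.20, adjusted p = 2.71e-07). *TEM1*, a RAV-family factor also known as EDF1, had 203 and 199 against 60.9 and 42.4 (1.96), and its relative *EDF3* had 86.8 and 88.7 against 39.5 and 38.5 (1.15). *ERF1*, a direct target of EIN3, was low throughout, with 3.03 and 2.53 against 0.469 and 0.189 (1.51). The 2 ET values of each of these genes stood above both air values. The NAC genes *ORS1* and *ORE1*, known from leaf senescence, were 0.79 and 1.02 higher. *RAV1* (70.1 and 66.2 against 71.4 and 68.2) and *ERF4* (23.4 and 34.4 against 34.6 and 29.4) did not pass.

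The *ARGOS* proteins reduce ET sensitivity when overproduced. *OSR1* (At2g41230, chromosome 2 from 17194748 to 17195697) had 82.7 and 96.8 after ET and 0.948 and 0.881 in air. It was near the limit of testing in air and abundant in both ET libraries, and its log2 fold change of 5.56 (SE 0.24, adjusted p = 1.4e-09) was the largest of any tested gene listed above 0 in air. *ARGOS* had 297 and 380 against 109 and 64.8 (1.99), and *ARL* had 180 and 234 against 60.8 and 33.2 (2.17).

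**Figure D2:**
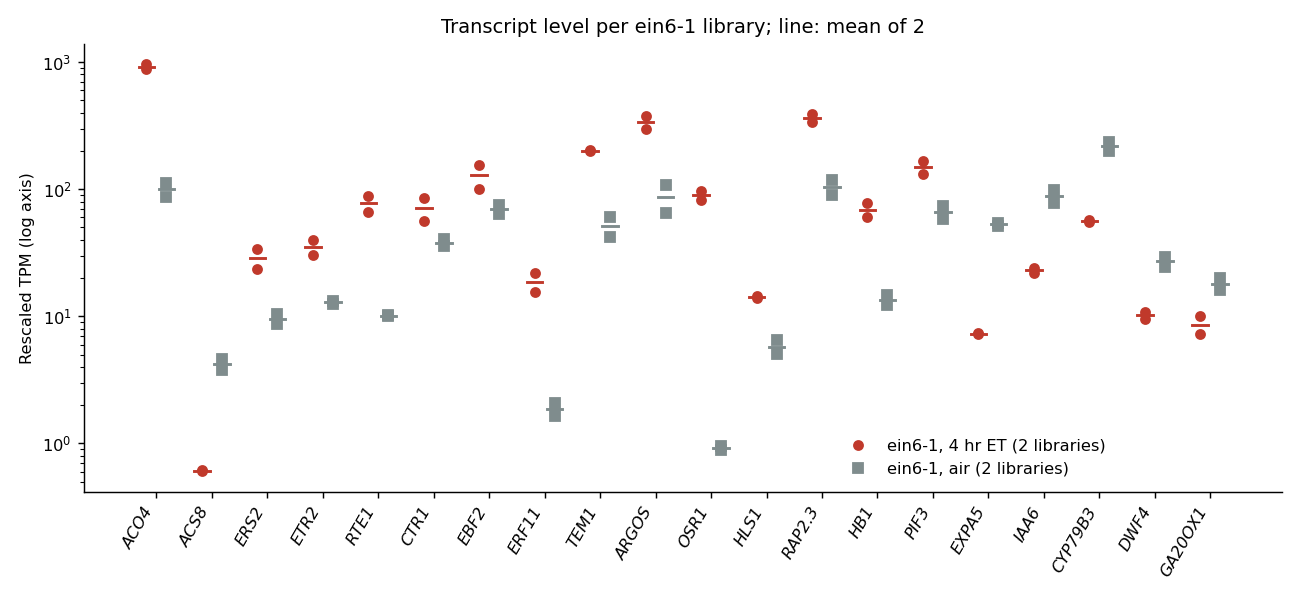
Rescaled TPM (log axis) of named genes in each *ein6-1* library, with the 2 ET libraries (circles) left of the 2 air libraries (squares) for each gene and a line at each mean. *OSR1* shows the widest gap, with 82.7 and 96.8 after ET against 0.948 and 0.881 in air, and both ET points lie above or below both air points in every gene drawn.

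Short windows of 5 promoters are shown because these genes, higher after ET, held the letters ATGTA, which occur in the sequence EIN3 binds, or GCCGCC, the GCC box bound by ERF proteins. Capitals mark the motif. Sequences are from the RefSeq genome TAIR10.1, 5′ to 3′ on the strand named, at chr3:8254543-8254565 (+) for *ETR2*, chr1:1157839-1157861 (-) for *ERS2*, chr2:17195756-17195778 (+) for *OSR1*, chr5:8797400-8797422 (+) for *EBF2* and chr1:9956994-9957017 (-) for *ERF11*. The motif base nearest the gene lies 3, 35, 68, 60 and 23 bases before the annotated gene start, in that order. The *ETR2* window itself runs past that start.
ETR2: gttcggttcATGTAagaacaagt
ERS2: gttctcttcATGTAccgtttctg
OSR1: tatacgtgtATGTAtagcttgta
EBF2: tatagtaacATGTAtttttaatg
ERF11: tgccactcgGCCGCCcctttgttg
Both strands were searched from 250 bases before to 50 after each gene start. ATGTA was in 60.6% of the 1394 promoters of genes called higher, in 58.5% of the 1776 called lower, and in 56.6% of all 19818, so most promoters hold it and a match is a description only. Among called members, ATGTA was in 3 of 5 perception genes, 7 of 10 transcription factors, 2 of 3 *ARGOS* genes and 2 of 4 ACC oxidases. GCCGCC was in 1.9% of promoters called higher, 0.9% called lower and 2.6% of all, and in 1 of the 10 transcription factors, *ERF11*.

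In the apical hook and auxin synthesis list, 4 of 9 were higher and 1 lower. *HLS1*, which is needed for the hook, had 14.1 and 14.4 after ET and 5.04 and 6.53 in air (log2 fold change 1.18, adjusted p = 0.000231). The auxin synthesis genes *YUC9* (10.2 and 7.05 against 3.28 and 1.92, 1.43) and *YUC5* (6.03 and 4.43 against 1.89 and 1.90, 1.09) were higher, with no overlap. Auxin response genes went down in 5 of 11 and up in 2. *IAA6* had 23.9 and 22 after ET and 99.0 and 77.4 in air (-1.89, adjusted p = 1.96e-06), and *IAA19* had 172 and 181 against 366 and 329 (-0.97). Both are auxin-induced repressors, and both ET libraries stood far below both air libraries. *IAA1* (37.5 and 45.3 against 25.5 and 21.1, 0.80) and *IAA4* (205 and 189 against 163 and 146, 0.35) were higher. Of the auxin carriers, *PIN2*, *PIN3* and *LAX2* were lower (-0.57, -0.56 and -0.64), of which *LAX2* alone passed without ET replicate 2. Without that library the response genes counted 1 higher and 2 lower.

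Expansins, which loosen cell walls, were lower in 4 of 9 and higher in 2. *EXPA5* (At3g29030, chromosome 3 from 11011262 to 11013451) had 7.35 and 7.28 after ET and 54.1 and 51.7 in air. The replicates agreed closely on each side (log2 fold change -2.70, SE 0.14, adjusted p = 1.38e-08). *EXPA8*, far more abundant, had 300 and 341 after ET and 622 and 557 in air (-0.88). The higher members *EXPA11* (0.50) and *EXPA3* (0.43) did not pass without ET replicate 2. Among 11 xyloglucan endotransglucosylases, which cut and rejoin wall polymers, 3 were higher and 2 lower. *XTH15* had 1302 and 1709 after ET and 656 and 659 in air (1.18), and *XTH18* had 1213 and 1394 against 655 and 532 (1.14). *XTH4* was lower, at 1345 and 1444 against 2418 and 1949 (-0.64).

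Gibberellin and brassinosteroid genes were lower in 5 of 13, and those 5 are enzymes of synthesis. *DWF4*, a rate-limiting enzyme of brassinosteroid synthesis, had 9.59 and 10.8 after ET and 29.4 and 24.6 in air (log2 fold change -1.32, adjusted p = 1.15e-06). The gibberellin oxidases *GA20OX2* (7.56 and 9.08 against 17.3 and 18.3) and *GA3OX1* (36.5 and 43.7 against 69.3 and 74.5) were lower by 1.02 and 0.83 on the log2 scale. The receptors *GID1A* and *GID1B* and the DELLA genes *GAI*, *RGA* and *RGL2* did not pass, with log2 fold changes between -0.31 and 0.07. In the light signaling list, 1 of 13 was higher and 4 were lower. The higher one was *PIF3*, a transcription factor of dark growth, with 167 and 132 after ET and 74.0 and 58.8 in air (1.16, adjusted p = 5.15e-06). Its relatives *PIF4* (1.57 and 2.09 against 5.33 and 4.37, -1.05) and *PIF1* (15.8 and 13.9 against 26.8 and 21.3, -0.65) were lower, so the 3 *PIF* genes called did not go the same way.

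Indolic glucosinolate synthesis, the route from tryptophan to defence compounds, was lower in 7 of 10 genes, also without ET replicate 2 and with the length trend taken out (list median -0.96). *CYP79B3* (At2g22330), which catalyzes the first step, had 55.1 and 57.0 after ET and 237 and 200 in air. The ET libraries were close together and far under both air libraries (log2 fold change -1.94, SE 0.09, adjusted p = 5.33e-09). Its partner *CYP79B2* had 26.9 and 36.0 against 106 and 103 (-1.71), and *CYP83B1*, the next enzyme, had 44.4 and 54.6 against 148 and 139 (-1.53). *MYB34*, a transcription factor that activates the route, had 48.5 and 61.3 against 130 and 104 (-1.08). *MYB51* (12.9 and 12.7 against 13.6 and 4.96) and *MYB122* (5.74 and 5.41 against 8.66 and 5.68) had a wide spread in air or low levels and did not pass. In the aliphatic route 1 of 6 tested genes was lower, *CYP79F2*, at 0.098 and 0.478 against 1.13 and 1.96.

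Hypoxia response genes were higher in 7 of 13 and lower in none, and the count was also 7 without ET replicate 2. *HB1* (At2g16060), a hemoglobin, had 61.0 and 77.3 after ET and 12.4 and 14.6 in air (log2 fold change 2.27, SE 0.18, adjusted p = 5.47e-07). *RAP2.3*, an ERF transcription factor whose stability depends on oxygen, had 388 and 339 against 119 and 89.7 (1.80), and the related *RAP2.2* had 347 and 315 against 200 and 183 (0.79). The oxygen-sensing oxidases *PCO1* (22.6 and 27.3 against 10.9 and 11.0, 1.11) and *PCO2* (15.6 and 17.9 against 9.21 and 9.27, 0.79) were higher. *ADH1*, alcohol dehydrogenase, had 16.8 and 18 against 8.74 and 6.81 (1.08). The fermentation gene *PDC1* (3.18 and 3.22 against 2.07 and 1.81) and the sucrose synthases *SUS1* (17.0 and 13.1 against 15.3 and 15.7) and *SUS4* (3.68 and 2.79 against 3.06 and 3.20) did not pass.

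Other lists held few calls. Over all genes tested 7.04% were higher and 8.76% lower, so few or no calls in lists this short say little about them. None of 12 photosynthesis genes passed, although their summed level was 3608 and 5883 after ET and 3337 and 3432 in air, with ET replicate 2 the highest of the 20 libraries, and 8 of the 12 were called higher without ET replicate 1. *RBCS1A* in that list had 1875 and 3181 against 1678 and 1837, and what part the replicate's high short transcripts have in this was not tested. None of 8 flavonoid, 11 INO80 and SWR1, 7 heat shock or 8 seed storage genes passed. Of 12 H3K27me3 and Polycomb genes, 1 was lower, the JmjC-domain gene At5g46910, with 13.7 and 7.72 after ET and 21.0 and 20.2 in air (log2 fold change -0.93). Of 10 cell cycle genes 1 was lower, the inhibitor *KRP2* (-0.72), and of 9 root hair genes 1 was lower, *GL2* (3.34 and 4.08 against 9.39 and 10.1, -1.20). Among 3 pathogen defence genes tested, the chitinase gene *CHI-B* had 34.1 and 44.9 after ET and 82.1 and 66.4 in air (-0.90), while *PR4* (0.57) and *PR1* (0.84) were higher with all 4 libraries but did not pass without ET replicate 2. The defensins *PDF1.2* and *PDF1.2b* were listed at 0 in all 4 libraries. In all, 235 of the 253 list genes passed the filter on low values.

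**Figure D3:**
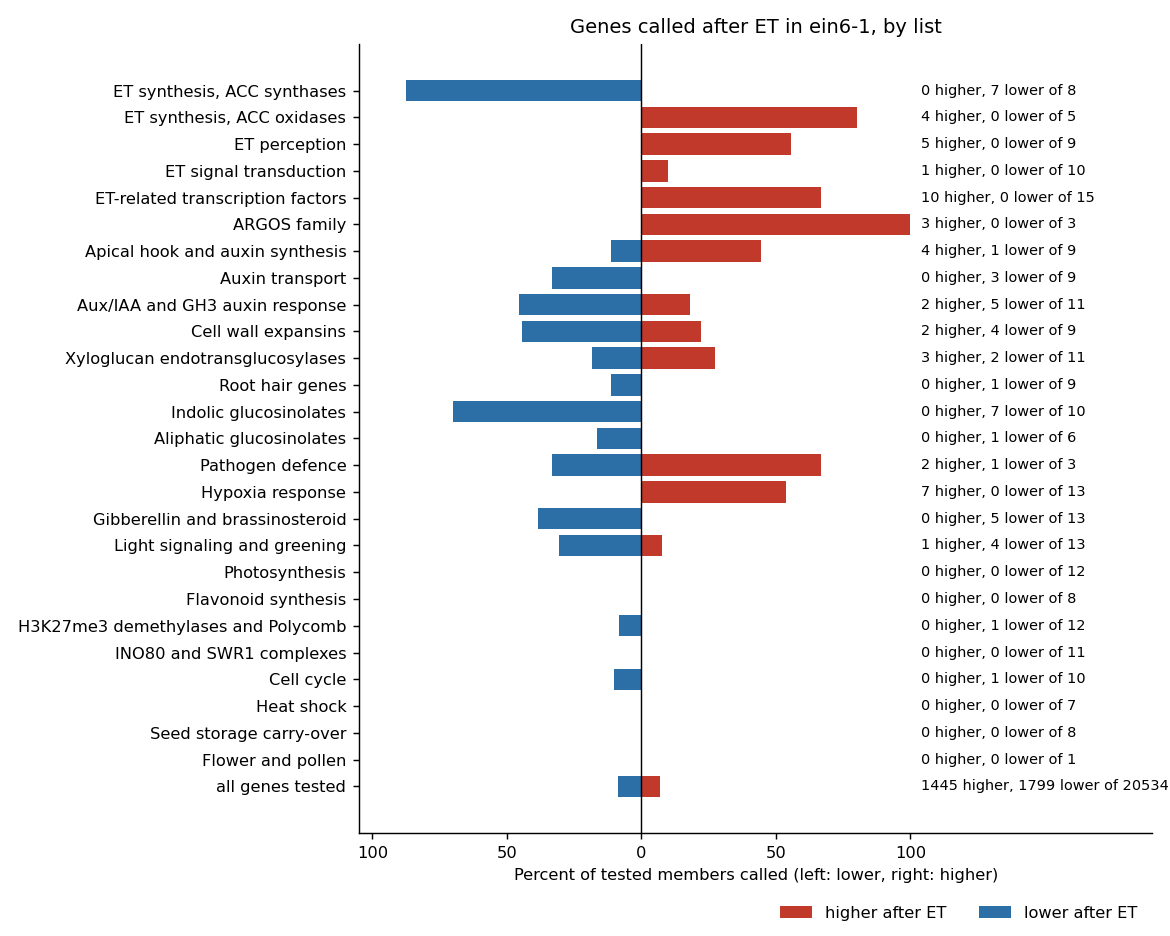
Percent of the tested members of each of 26 lists called higher (right) or lower (left) after ET in *ein6-1*, with the counts at the right edge. ACC synthases and indolic glucosinolates reach furthest left (7 of 8 and 7 of 10 lower) and *ARGOS* genes and ACC oxidases furthest right (3 of 3 and 4 of 5 higher), beside 7.04% higher and 8.76% lower over all genes tested.

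The 15 largest increases included 5 entries of ribosomal DNA, the chloroplast or small nucleolar RNA. At2g01021 (chromosome 2 from 6571 to 6672), the next protein-coding annotation after 2 rRNA genes, had 14830 and 107200 after ET and was listed at 0 in air. ATCG00960 and ATCG01170, which carry chloroplast identifiers, shared identical values, 3211 and 25150 after ET and 0 in air. The small nucleolar RNA gene At3g24615 had 203 and 1269 after ET and 0 in air, and *SNOR37-2* had 16.7 and 22.6 after ET and 0 in air. In 4 of these 5, ET replicate 2, the library with the high rRNA share, had over 6 times the value of replicate 1. None of the 5 was confined to *ein6-1* ET. In the ET libraries of *ein6-1 een-1*, whose rRNA shares were 10.3% and 7.00%, At2g01021 had 19150 and 14830 and At3g24615 had 317 and 210, and both were listed at 0 in *ein6-1 een-1* air. ATCG00960 had 2006 and 2026 in *ein6-1 een-1* ET and 10020 in 1 *ein2-45* air library. *SNOR37-2* had 17.9 and 16.7 in *ein6-1 een-1* ET, and between 27.2 and 52.0 in 4 air libraries, 2 of *een-1*, 1 of the double mutant and 1 of *ein2-45*. No fold is given against a group listed at 0. At2g01021 is itself counted in the rRNA share, and what part that share has in the other entries was not tested.

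The other 10 largest increases were genes with mRNA. Beside *OSR1* and *ACO4*, *EXPA12* (At3g15370), an expansin, had 40.7 and 56.7 after ET and 0.489 and 1.65 in air (log2 fold change 4.63, SE 0.29, adjusted p = 8.49e-08). *BCA3*, a carbonic anhydrase, had 44.5 and 53.9 against 3.62 and 0.807 (4.11). The peroxidase gene At5g19890 had 225 and 209 against 17.9 and 8.52 (4.02), and the acyltransferase gene At2g39980 had 330 and 303 against 28.1 and 26.9 (3.48). In all of these the ET libraries lay close together and many times above both air libraries. At5g42530 (41.7 and 57.6 against 3.33 and 0.881, 4.13) and At1g19530 (370 and 389 against 52.9 and 36.7, 3.08) have no described product. At4g18680, annotated as related to a delay-of-germination protein, had 10.9 and 15.2 after ET, and in air 0 and 0.535 (3.48). At5g18661 had 26.2 and 38.5 after ET, and in air 0 and 11.5, and did not pass without ET replicate 2 (adjusted p = 0.163). Without that library 13 of the 15 passed, all but At5g18661 and *SNOR37-2*.

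The 15 largest decreases all passed on the deposited TPM and with the length trend taken out. Without ET replicate 2 their log2 fold changes ranged from -3.64 to -2.31. Both sets of 15 were chosen by their fold changes in these same libraries. That favors a pass in each refit, so the counts for both sets are a description only. The GDSL lipase gene At1g75900 (chromosome 1 from 28498821 to 28501254) had 9.22 and 8.57 after ET and 147 and 109 in air. The ET libraries were alike and more than 10 times below either air library (log2 fold change -3.69, SE 0.15, adjusted p = 1.29e-09). A further GDSL lipase gene, At1g29660, had 0.555 and 1.5 against 17.7 and 14.6 (-3.12), and *CER4*, a fatty acyl-CoA reductase of wax synthesis, had 4.39 and 4.28 against 29.2 and 27.7 (-2.46). *EXPB1*, a beta-expansin, had 4.82 and 8.33 against 34.4 and 38.2 (-2.34), and *EXPA5* was the other expansin. *MRN1*, marneral synthase of triterpene synthesis, had 76.3 and 58.6 against 501 and 322 (-2.57), and *MSRB9*, a methionine sulfoxide reductase, had 164 and 222 against 1010 and 987 (-2.38). The arabinogalactan-protein gene At4g16980 had 26.2 and 42.1 against 220 and 195 (-2.61). By the rule that chose them, ET and air did not overlap in any of these genes. The remaining 7 had log2 fold changes between -2.56 and -2.31, among them a pectin methylesterase inhibitor family gene (At4g25250) and a leucine-rich repeat kinase gene (At5g24100).

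Few genes passed the test of a difference between the *ein6-1* response and that of its wild type. In L*er*, 1815 genes were higher and 2637 lower after ET (8.84% and 12.8%), and 674 higher and 1387 lower genes were called in both. These are 46.6% and 77.1% of the *ein6-1* calls, and 37.1% and 52.6% of the L*er* calls. Over the genes called higher in *ein6-1* the median log2 fold change was 0.69 in *ein6-1* and 0.45 in L*er*, and over those called lower it was -0.72 and -0.74. These genes were chosen by their call in *ein6-1*, so the medians do not compare the 2 responses evenly. The difference between the responses passed in 3 genes, 2 higher and 1 lower in *ein6-1* (0.0146% of genes), although 2148 genes had an unadjusted p below 0.05. They were At2g01021 and At3g24615, of the entries listed at 0 in air, and *MIR159a*, listed at 0 in *ein6-1* ET and air and L*er* air and at 2.21 and 2.00 in L*er* ET. A count this low does not show that the responses are equal. It was larger without ET replicate 1, which leaves replicate 2, with the high rRNA share, as the only *ein6-1* ET library.

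Few genes passed against *een-1* either. In *een-1*, 996 genes were higher and 1968 lower (4.85% and 9.58%), of which 468 and 1113 were called in *ein6-1* too. The difference from *een-1* passed in 3 genes (0.0146%), with 2302 at an unadjusted p below 0.05. More passed without *ein6-1* ET replicate 1, which leaves replicate 2 as the only *ein6-1* ET library. With all libraries the 3 genes were At2g01021, At3g24615 and *PPCK1*, a kinase of phosphoenolpyruvate carboxylase. *PPCK1* had 27.3 and 28.5 in *ein6-1* after ET and 24.9 and 25.8 in *ein6-1* air, whereas *een-1* had 11.8 and 12.7 after ET and 26.3 and 22.4 in air (difference 1.06, adjusted p = 0.043). The call was lost in 18 of 27 alternatives, among them leaving out non-coding and organelle genes (adjusted p = 0.092), with a difference of 0.77 to 1.18 and an adjusted p of 0.020 to 0.58 over all 27.

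Many more genes passed against *ein6-1 een-1*. In the double mutant, which carries the same *ein6-1* allele, ET moved 91 genes up and 35 down (0.443% and 0.17%). The difference passed in 511 genes where *ein6-1* was the higher and 843 where it was the lower (2.49% and 4.11%). The 2 counts summed to 1354 with all libraries and to fewer without any 1 of the 4 *ein6-1 een-1* libraries. Without *ein6-1* ET replicate 1, which leaves replicate 2 alone in that group, they summed to more. Over the genes called in *ein6-1*, the double mutant's median log2 fold change was 0.06 for those higher and -0.02 for those lower. Here too the genes were chosen by their call in *ein6-1*. In *ein2-45* no gene passed (0.0%, with 623 at an unadjusted p below 0.05), and the medians were -0.01 and 0.02.

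All of the 15 largest decreases passed the test of the difference from *ein6-1 een-1* and none was called in the double mutant, whose log2 fold changes for them ranged from -0.962 to 0.234. The largest decreases and increases were chosen by their *ein6-1* fold changes, which also enter this test. The choice favors a pass, so the counts are a description only. Of the 15 largest increases, 9 passed. *EXPA12* was 4.63 higher in *ein6-1* and 0.40 higher in *ein6-1 een-1* (difference 4.23, adjusted p = 2.81e-05 from limma), and *ACO4* was 3.20 higher in *ein6-1* and 0.87 in the double mutant (2.33, adjusted p = 7.71e-05). *OSR1* kept a large response in the double mutant, 2.91 against 5.56 in *ein6-1*, 4.85 in L*er* and 4.58 in *een-1*. Among the lists, 4 of 5 ACC oxidases, 7 of 10 indolic glucosinolate genes, 5 of 13 hypoxia genes and 4 of 8 ACC synthases differed from the double mutant. Each did so in the direction of the *ein6-1* response. In other lists 4 of 15 ET-related transcription factors and 3 of 9 perception genes differed. None of 10 signal transduction or 9 apical hook and auxin synthesis genes did. Over all genes tested 2.49% were higher and 4.11% lower in this difference. *CYP79B3* was 1.94 lower on the log2 scale in *ein6-1* and 0.19 higher in *ein6-1 een-1* (difference -2.13, adjusted p = 3.54e-07). *ETR2* had 1.38 in *ein6-1* and 1.05 in the double mutant and *HLS1* 1.18 and 0.88, and neither difference passed (adjusted p = 0.441 and 0.549).

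**Figure D4:**
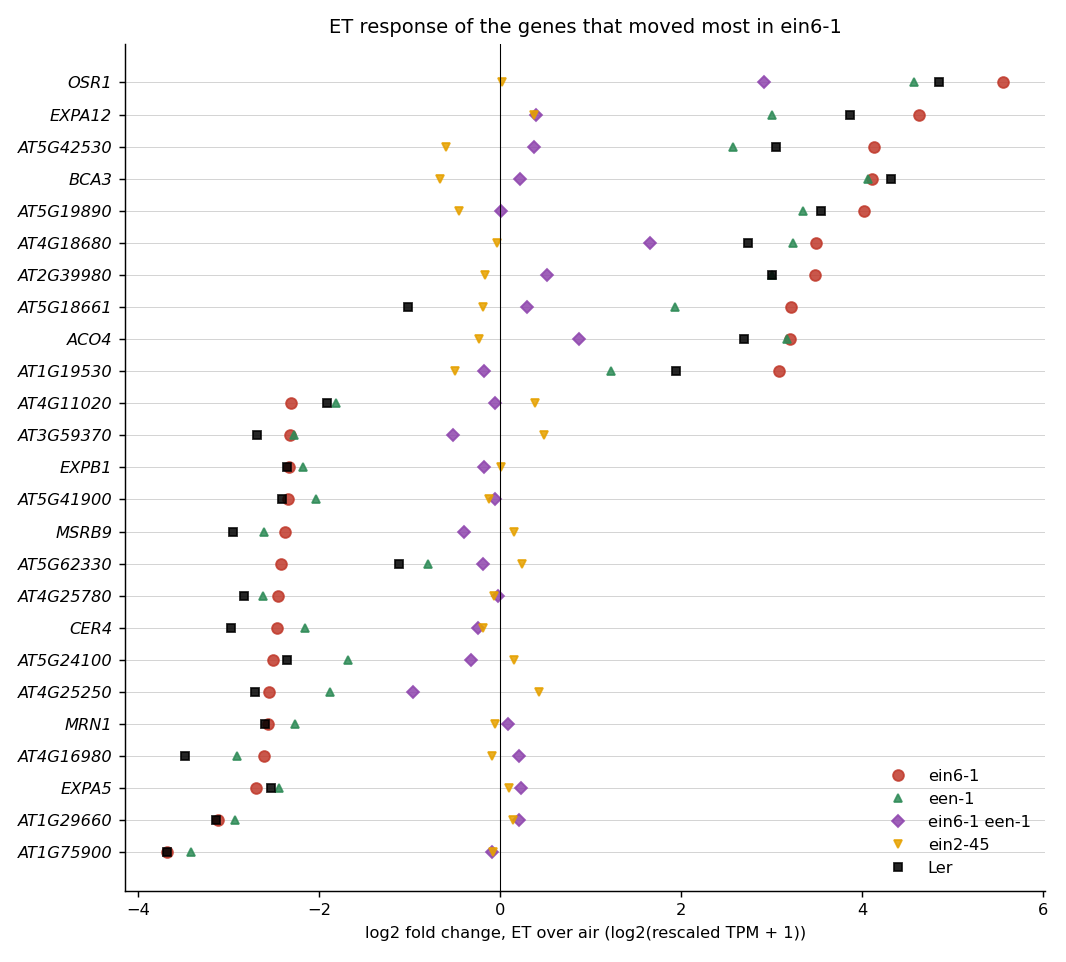
Log2 fold change, ET over air, of the largest increases and decreases of *ein6-1* with mRNA (1 line a gene) in *ein6-1*, the single mutant *een-1*, the double mutant, *ein2-45* and L*er*. For the 15 decreases, chosen by their fold change in *ein6-1*, the *ein6-1* points reach -2.31 to -3.69, while those of *ein6-1 een-1* lie between -0.962 and 0.234.

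**Figure D5:**
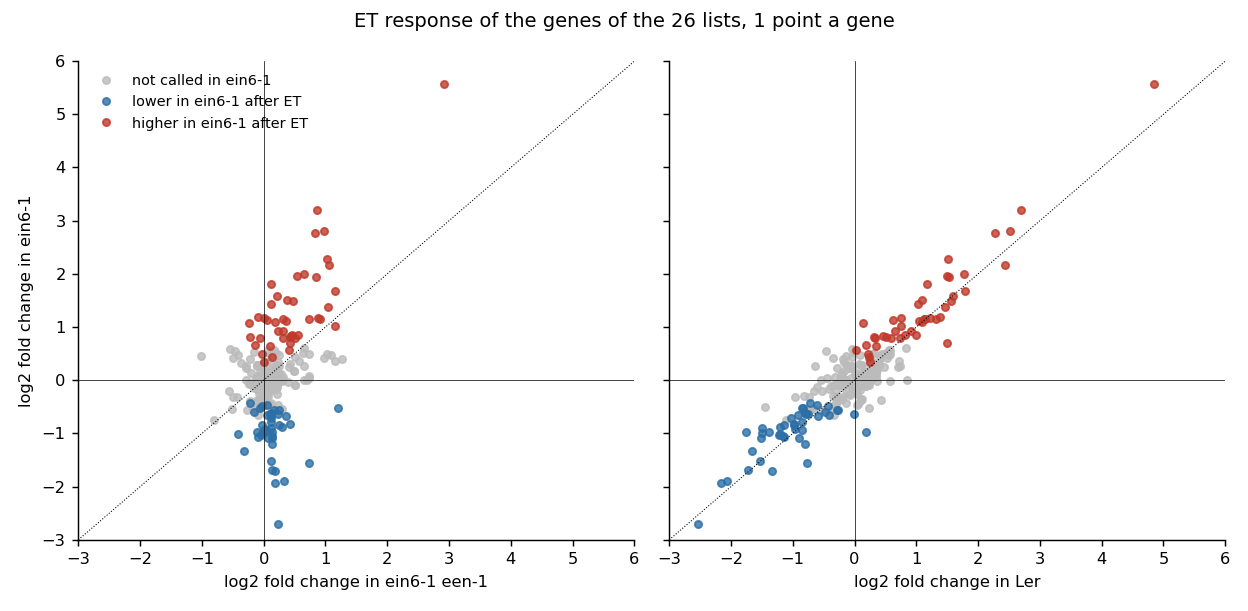
Log2 fold change in *ein6-1* (vertical axis) against that in *ein6-1 een-1* (left) and L*er* (right) for the tested genes of the 26 lists, 1 point a gene, colored by the call in *ein6-1*. *ACO4*, at 3.20 in *ein6-1*, lies at 0.87 in *ein6-1 een-1* and 2.69 in L*er*, and the dotted line marks equal response.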

How the data were processed

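RNA was sequenced from 20 libraries (5 genotypes, ET and air, 2 each). The authors aligned them to TAIR10 (STAR 2.6.0c) and estimated abundance with RSEM. The 33602 genes of the deposited table carry TPM. The study's own tool for differential expression needs read counts, which were not used here, so limma took its place and depth is unknown. Positions come from RefSeq TAIR10.1, which matched 32835 genes.

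Each library was divided by its median-of-ratios factor (19804 genes above 0 in every library). Genes with at least 1 rescaled TPM in at least 2 libraries were tested on log2(rescaled TPM + 1), with a pseudocount of 1. A model of 10 group means was fitted with limma 3.58.1 (R 4.3.3) with a variance trend, and differences between genotypes are interaction contrasts in that fit. Calls have an adjusted p below 0.05 (Benjamini-Hochberg).

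Named genes are members of 26 lists, the 15 largest increases and decreases called in which ET and air libraries do not overlap and a mean reaches 5 TPM, the 10 largest differences from L*er* in each direction under the same minimum, and *EIN2*, *EIN3*, *REF6* and *EEN*. *PPCK1* was named after its values were seen, as was *MIR159a*, which is under that minimum. Members and lists were chosen with earlier results of these data known. The length trend was the median difference from the mean over libraries in 20 bins of exon length.

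Alternatives were the deposited TPM, factors from genes of at least 5 TPM, no minimum or 5 TPM, pseudocounts of 0.1 and 5, the compared groups only, a replicate block, each library left out and non-coding and organelle genes left out. Removing the length trend, and deposited TPM without ET replicate 2, were added after seeing the data. On simulated data for the *ein6-1* comparison (20534 genes), 81 of 100 genes changed by 1 and 100 of 100 changed by 2 (log2) were recovered and 9 unchanged genes were called. The simulation used independent noise with 1 spread per gene and a lower scale for ET replicate 2. It held no length trend, so it does not give the rate of false calls in the real libraries. Figures used Python 3.11.15 and matplotlib 3.10.9.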

Additional observations from a re-analysis of the deposited data

Results flagged for a closer look

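The ET response of *ein6-1* differed from that of another genotype, by a test of the difference itself, in 3 genes for L*er*, in 3 for *een-1* and in 1354 for *ein6-1 een-1*. Against L*er* and *een-1*, At2g01021 (mean 61030 rescaled TPM in *ein6-1* ET) and At3g24615 (736) were listed at 0 in the other groups of each difference, but not in *ein6-1 een-1* ET, where they had 19150 and 14830, and 317 and 210. *MIR159a* had a mean of 2.10 in L*er* ET and 0 in the other groups. *PPCK1* differed from *een-1* by 1.06 on the log2 scale, a call lost in 18 of 27 alternatives.

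Among the largest increases, the difference from *ein6-1 een-1* (log2, *ein6-1* minus double mutant) was 4.23 for *EXPA12*, 4.01 for At5g19890, 3.89 for *BCA3*, 3.76 for At5g42530, 3.26 for At1g19530, 2.96 for At2g39980, 2.65 for *OSR1*, 2.33 for *ACO4* and 1.83 for At4g18680. Among the largest decreases it was -3.60 for At1g75900, -3.32 for At1g29660, -2.93 for *EXPA5*, -2.81 for At4g16980, -2.66 for *MRN1*, -2.44 for At4g25780, -2.29 for At5g41900, -2.25 for At4g11020 and -2.24 for At5g62330. The rest were -2.21 for *CER4*, -2.19 for At5g24100, -2.15 for *EXPB1*, -1.98 for *MSRB9*, -1.80 for At3g59370 and -1.60 for At4g25250.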

How the results depend on the processing

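The count of genes called after ET in *ein6-1* (3244) was 833 with the compared groups alone (378 higher, 455 lower, fewer samples to estimate the spread), and 1475 on the deposited TPM without ET replicate 2 (675 and 800). On the deposited TPM the higher count was 400. Leaving out 1 library gave 1970 to 5917 (759 to 2985 higher, 1128 to 2932 lower), with 5917 without ET replicate 1, 2056 without ET replicate 2 and 1970 without air replicate 1. A replicate block gave 3388 (1530 and 1858). Replicate numbers are not stated to mark a shared batch, and the deviations of same-numbered *ein6-1* libraries correlated at 0.103, so no pairing was used. *EBF1* (0.03) turned to -0.34 without ET replicate 1 and was 0.40 without ET replicate 2.

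The difference from L*er* (3 genes) counted 8 with no minimum, 6 with the length trend taken out, 5 with the compared groups alone and 0 without non-coding and organelle genes, and 2 to 458 with 1 library left out (458 without *ein6-1* ET replicate 1, 8 without air replicate 2). That from *een-1* (3) counted 5 and 7 with pseudocounts of 0.1 and 5, 5 with the replicate block, 7 with the length trend taken out, 6 with the compared groups alone and 0 without non-coding genes, and 2 to 1085 with 1 library left out (1085 without *ein6-1* ET replicate 1, 7 without air replicate 1, 5 without air replicate 2, 7 without *een-1* ET replicate 1). That from *ein6-1 een-1* (1354) counted 623 on the deposited TPM (114 higher, 509 lower), 789 without ET replicate 2 as well (396 and 393) and 423 with the compared groups alone (138 and 285), and 774 to 3094 with 1 library left out (249 to 1407 higher, 496 to 1687 lower), 3094 without *ein6-1* ET replicate 1 and 774 to 875 without 1 of the double mutant's libraries. Without *ein6-1* ET replicate 1 that group holds replicate 2 alone, the library with the high rRNA share. Apart from these constructions the cause was not tested.

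Of 264 named genes, 20 were no longer called without ET replicate 2, 4 with the length trend taken out and 40 of 256 with the compared groups alone.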

Other observations

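In some gene families outside the lists, several members were lower after ET in *ein6-1*. The families were chosen after the results were seen and grouped by their annotated symbols, so their counts are a description only. Over all genes tested 7.04% were higher and 8.76% lower (7.79% and 10.1% with the length trend taken out). Of 15 tubulin genes, 9 were lower and none higher, also without ET replicate 2 and with the length trend taken out. *TUB8* had 102 and 91.9 rescaled TPM after ET and 195 and 202 in air (log2 fold change -1.02, SE 0.09), and *TUA1* had 28.6 and 26.5 against 61.1 and 51.0 (-0.99). The pairs *TUA3* and *TUA5*, and *TUB2* and *TUB3*, are near-identical neighbours, so the split of reads between their members is uncertain. Of 12 plasma membrane aquaporins, 7 were lower and none higher (8 lower without ET replicate 2). *PIP3* had 656 and 892 after ET and 2803 and 2857 in air (-1.89), and *PIP1;4* had 43.5 and 69.4 against 187 and 188 (-1.75).

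Of 15 3-ketoacyl-CoA synthases, which lengthen fatty acids for cuticle and other lipids, 8 were lower and 1 higher (5 and 0 without ET replicate 2), and 4 of 7 *CER* genes were lower. *KCS5* had 32.2 and 30.4 after ET and 85.1 and 77.5 in air (log2 fold change -1.35), and *CER3*, of alkane wax synthesis, had 47.4 and 39.5 against 104 and 81.7 (-1.07). Of 16 fasciclin-like arabinogalactan proteins 5 were lower, among them *FLA9* (603 and 713 against 1896 and 1700, -1.45). None of 7 cellulose synthase genes passed. In each gene given with its values here both ET libraries lay below both air libraries.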
